A study of Mus musculus with 96 samples.

Results

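The mitochondrial genome encodes a small set of respiratory chain subunits, and 10 of its genes are described here: mt-Nd1, mt-Nd2, mt-Nd4 and mt-Nd5 of complex I, mt-Cytb of complex III, mt-Co1, mt-Co2 and mt-Co3 of complex IV, and mt-Atp6 and mt-Atp8 of complex V. These genes were chosen by name with their levels in the same libraries already known, that is, they were selected on values of these data. Their levels, shares and changes are therefore a description of these libraries and no independent support for any pattern. The members make up 10 of the 56748 genes of the count table and 10 of the 13 messenger RNAs among its 37 mitochondrial genes. The messenger RNAs mt-Nd3, mt-Nd4l and mt-Nd6 were not listed.

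Mitochondrial genes are read from both strands of a circular genome as long precursor RNAs, which are cut into separate ribosomal, transfer and messenger RNAs. The listed subunits sit in the inner membrane, where complexes I, III and IV move electrons to oxygen and pump protons, and complex V uses the proton gradient to make ATP. All of these complexes also hold subunits encoded in the nucleus.

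The series compared mice on daily intermittent fasting (IF) with mice fed ad libitum (AL) by RNA-seq of liver, skeletal muscle and cerebral cortex. Male C57BL/6 mice were put on their diet at 6 weeks of age for 4 months, and IF meant 16 h per day without food; for the female mice these details were not stated. Mice 1-16 were male (AL mice 1 to 8, IF mice 9 to 16) and mice 25-40 were female (AL mice 25 to 32, IF mice 33 to 40). Sex and mouse set coincide, so their effects cannot be told apart. Each tissue, set and diet gave 8 libraries, except cortex of AL mice 1-16 with 7. The 95 libraries held 26097314 to 49838004 counted reads each, with a median of 36132954.

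All 10 genes lie on the plus strand of the mitochondrial chromosome in the GRCm39 build. The complex I genes are mt-Nd1 (ENSMUSG00000064341, chrM:2751-3707), mt-Nd2 (ENSMUSG00000064345, chrM:3914-4951), mt-Nd4 (ENSMUSG00000064363, chrM:10167-11544) and mt-Nd5 (ENSMUSG00000064367, chrM:11742-13565). Complex III has mt-Cytb (ENSMUSG00000064370, chrM:14145-15288). Complex IV has mt-Co1 (ENSMUSG00000064351, chrM:5328-6872), mt-Co2 (ENSMUSG00000064354, chrM:7013-7696) and mt-Co3 (ENSMUSG00000064358, chrM:8607-9390). Complex V has mt-Atp8 (ENSMUSG00000064356, chrM:7766-7969) and mt-Atp6 (ENSMUSG00000064357, chrM:7927-8607).

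Several of these genes cannot be counted cleanly, because the nuclear genome holds a nearly exact copy of part of the mitochondrial genome. The copy lies on the minus strand at chr1:24650616-24655265 and matches chrM:6394-11042 in 2 stretches without gaps, chrM:6394-9828 and chrM:9821-11042. Within the stretches 1 base was substituted, and where they meet, inside mt-Tr, the copy is 1 base longer. The substitution is T9461C in mt-Nd3, with positions counted along the mitochondrial genome and the mitochondrial base first. Every 150-base window of mt-Co2, mt-Co3, mt-Atp6 and mt-Atp8 (100%) also occurs in the nuclear genome, against 59.2% for mt-Nd4 and 23.6% for mt-Co1. For mt-Nd1, mt-Nd2, mt-Nd5 and mt-Cytb the share was 0%. A read that fits both places can be assigned to either or left uncounted, and the setting used for counting was not stated. Values of mt-Co2, mt-Co3, mt-Atp6 and mt-Atp8 are therefore uncertain wherever they appear. Those of mt-Nd4 and mt-Co1 are uncertain for the part of each gene that lies in the copied stretch.

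**Figure D1:**
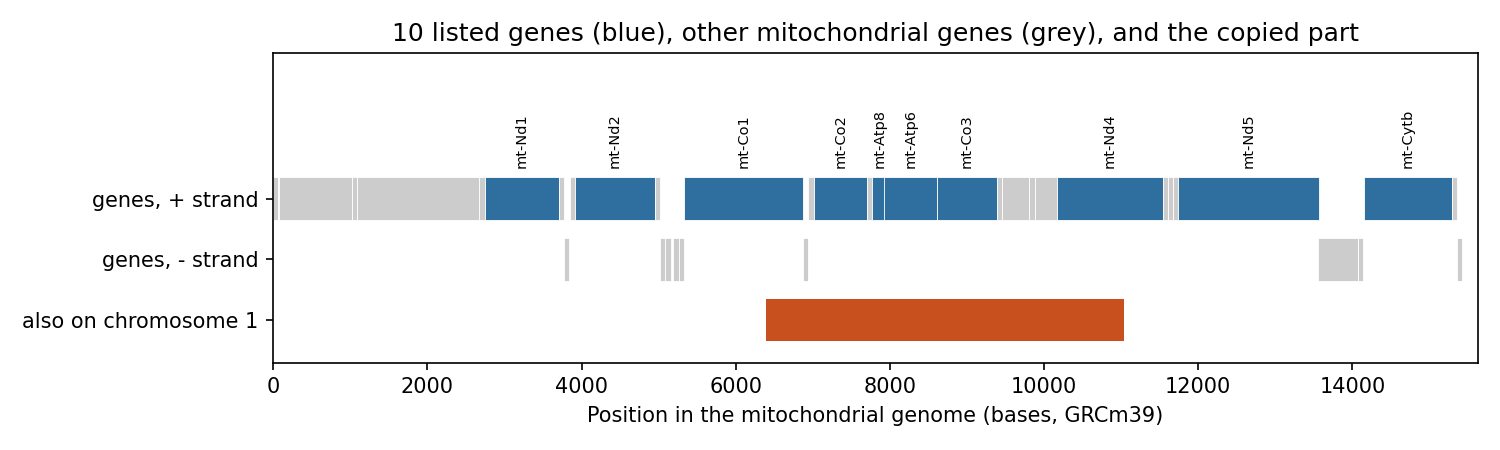
The 10 genes along the mitochondrial genome (position in bases), with the stretch from 6394 to 11042 that the nuclear copy repeats. The genes mt-Co2, mt-Atp8, mt-Atp6 and mt-Co3 lie wholly inside that stretch, and mt-Nd1, mt-Nd2, mt-Nd5 and mt-Cytb wholly outside it.

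The sequence around the substitution is shown because it is the only one found between the copied stretch and the copy. The substituted base is the capital in both lines, the first being chrM:9431-9491 on the plus strand and the second chr1:24652168-24652228 read on the mitochondrial strand (GRCm39).

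mitochondrial window with the difference: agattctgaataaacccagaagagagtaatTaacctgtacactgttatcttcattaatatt

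copy, read on the mitochondrial strand: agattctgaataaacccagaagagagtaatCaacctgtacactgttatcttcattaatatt

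The ends of the copied stretch are shown because they set which part of mt-Co1 and mt-Nd4 is affected. Capitals mark bases inside the copied stretch, at chrM:6364-6423 within mt-Co1 and chrM:11013-11072 within mt-Nd4, both on the plus strand of GRCm39.

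start of the copy: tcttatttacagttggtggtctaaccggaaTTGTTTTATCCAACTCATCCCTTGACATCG

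end of the copy: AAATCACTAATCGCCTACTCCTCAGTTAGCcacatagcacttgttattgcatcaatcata

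The mt-Atp8 gene is only 204 bases long, and its last 43 bases (chrM:7927-7969) are also the start of mt-Atp6 on the same strand. It is shown in full (chrM:7766-7969, plus strand, GRCm39), with the bases shared with mt-Atp6 in capitals, because a read over them belongs to both genes. Counts of mt-Atp8 ran from 6 (muscle, IF mouse 9) to 286 per library, while mt-Atp6 had at least 1235.

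mt-Atp8: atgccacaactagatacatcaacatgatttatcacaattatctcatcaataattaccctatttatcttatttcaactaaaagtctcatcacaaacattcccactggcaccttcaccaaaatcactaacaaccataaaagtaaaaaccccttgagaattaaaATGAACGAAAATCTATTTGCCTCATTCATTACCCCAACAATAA

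The copy also has its own annotated pseudogenes, and these took a sizeable part of the reads. Of the counts at mt-Co2 and its pseudogene Gm28661 together, the pseudogene held 11.5 to 82.1% over the 95 libraries (median 42.8%). For mt-Co3 and Gm28437 the range was 11.7 to 86.4% (median 38.6%), and for mt-Atp6 and Gm10925 it was 9.91 to 61.1% (median 31.7%). The pseudogenes of mt-Co1 (Gm29216) and mt-Nd4 (Gm28439) held little, at most 5.15% and 0.864%. Reads left uncounted do not enter any of these percentages. No pseudogene of mt-Atp8 is annotated. The spread between mice also differed among the members: the coefficient of variation within a group, as a median over the 12 groups, was 16.4 to 22.8% for mt-Nd1, mt-Nd2, mt-Nd4, mt-Nd5, mt-Cytb and mt-Co1. It was 45.2% for mt-Co2, 47.9% for mt-Co3, 49.7% for mt-Atp8 and 60.2% for mt-Atp6.

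Together the 10 messenger RNAs formed a large part of all counted RNA, largest in liver and smallest in cortex of AL mice. In liver of AL mice 1-16 the listed total was 135793 CPM (counts of a gene with every library scaled to the same total) at lowest, 194093 at the median and 236456 at highest, or 13.6, 19.4 and 23.6% of the library. Muscle of the same mice had 97513, 106302 and 116135 CPM, and cortex 44144, 54123 and 81597 CPM, so the 3 tissues did not overlap. The order differed in IF mice 1-16, where the median of muscle (95442 CPM) was above that of liver (92164 CPM) and their ranges overlapped. In mice 25-40 liver was again first at the median under both diets (AL 129120, IF 117328 CPM), overlapping muscle (AL 117525, IF 99612 CPM), with cortex last (AL 60347, IF 55507 CPM).

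**Figure D2:**
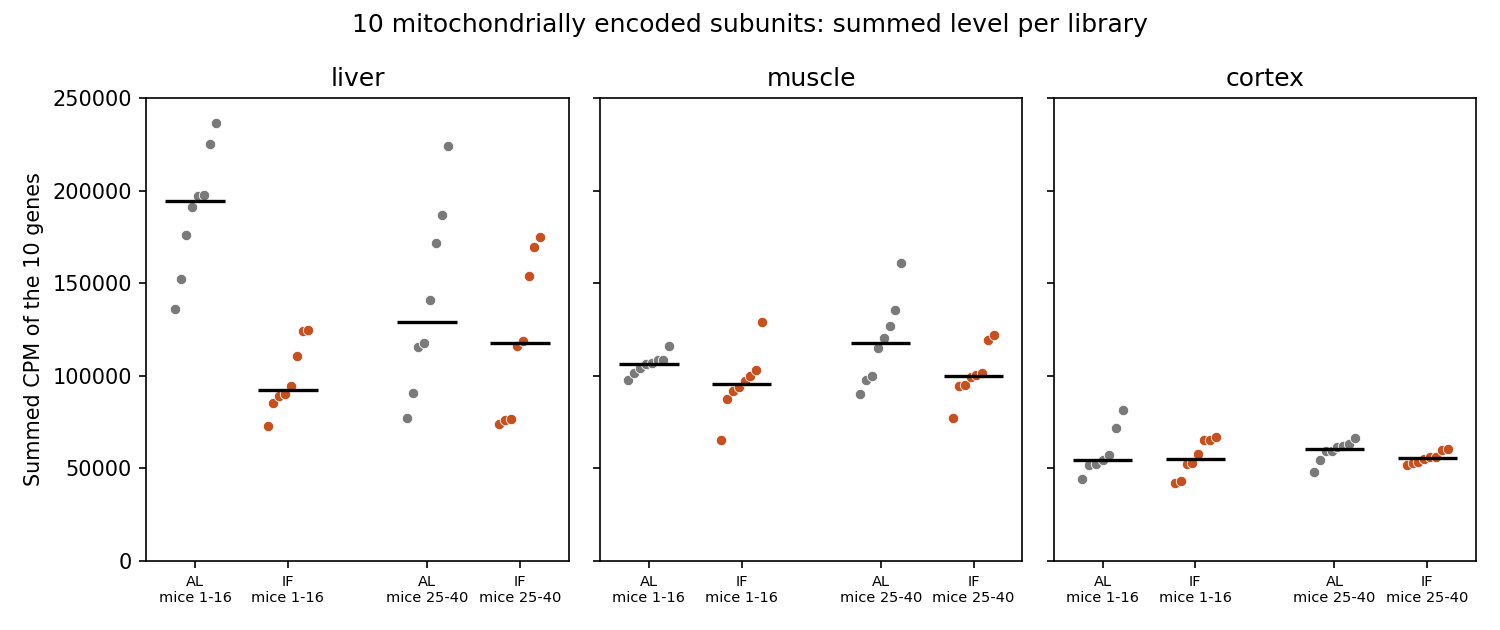
Listed total in CPM of each library (points), by tissue, mouse set and diet. In liver of mice 1-16 the IF libraries (72502 to 124391 CPM) all lie below the AL libraries (135793 to 236456 CPM), while AL and IF overlap in the other panels.

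Within the total, 5 genes carried nearly all of the counts. As medians of liver, muscle and cortex, mt-Co1 held 31.6, 29.4 and 35.1% of the listed total, mt-Cytb 21.1, 19.8 and 20.4%, and mt-Nd1 15.4, 19.5 and 16.2%. The complex I genes mt-Nd4 (14.9, 12.96 and 12.7%) and mt-Nd2 (12.9, 12.9 and 10.2%) came next. Far less fell to mt-Nd5 (2.53, 3.82 and 4.52%) and least to the genes inside the copied stretch: mt-Co2 0.401, 0.534 and 0.324%, mt-Co3 0.270, 0.349 and 0.129%, mt-Atp6 0.270, 0.465 and 0.177%, mt-Atp8 0.00116, 0.00122 and 0.00184%. The low shares of these 4 genes cannot be separated from reads lost to the copy. Shares of mt-Co1 and mt-Nd4 may likewise be lowered by such reads, by an unknown amount.

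Genes of different length compare only per kilobase. In liver of AL mice 1-16 the median was 37277 CPM per kb for mt-Cytb, 34861 for mt-Co1, 29812 for mt-Nd1, 26994 for mt-Nd2 and 22500 for mt-Nd4. It was 2745 for mt-Nd5, 1358 for mt-Co2, 1156 for mt-Atp6, 592 for mt-Co3 and 12.5 for mt-Atp8. Per kilobase of full gene length mt-Cytb was thus above mt-Co1 at the median of that liver group, with close means (35987 and 35594 CPM per kb). Part of mt-Co1 and of mt-Nd4 lies in the copied stretch, whereas mt-Cytb lies wholly outside it. Reads lost to the copy may lower the values of mt-Co1 and mt-Nd4 by an unknown amount. The order of mt-Cytb and mt-Co1 in liver of AL mice 1-16 is therefore uncertain. In the other liver groups the median of mt-Co1 was the higher one. It was 18311 against 17394.5 CPM per kb in IF mice 1-16. In mice 25-40 it was 30202 against 23685 under AL and 25413 against 21037 under IF. In cortex of AL mice 1-16 mt-Co1 (12798 CPM per kb) was likewise above mt-Cytb (9640.5 CPM per kb).

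Diet went with lower mitochondrial messenger RNA in liver of male mice, with fewer members called in the other groups. The edgeR quasi-likelihood test called a gene at a Benjamini-Hochberg adjusted p of at most 0.05 over all genes tested, and in liver of mice 1-16 it called 9 of the 10 members, all lower under IF. Such calls were common there: of 16204 genes tested, 44.6% were called, 23.5% higher and 21.1% lower. In liver of mice 25-40, 0% of 15938 genes were called (6 genes by DESeq2), and among the members edgeR called 0, with 0 at an unadjusted p under 0.05 and 0 by DESeq2. The difference in diet effect between the mouse sets (effect in mice 25-40 minus effect in mice 1-16) was called in liver for 23.7% of 17658 genes, 12.8% higher and 10.9% lower.

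In mice 1-16, and for the difference between the sets, muscle and cortex had fewer calls among all genes than liver. In muscle of mice 1-16, 23.1% of 15025 genes were called, 11.5% higher and 11.6% lower; in mice 25-40, 0.00653% of 15308, which was 1 gene; and for the difference between the sets 14.2% of 16346, 7.38% higher and 6.77% lower. In cortex of mice 1-16, 7.21% of 18462 genes were called, 3.79% higher and 3.43% lower; in mice 25-40, 0.0109% of 18403, which was 2 genes; and for the difference 2.03% of 19547, 1.06% higher and 0.967% lower. Among the members, muscle had 3 of 10 called in mice 1-16, and cortex had 1 of 10 called in mice 25-40.

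Members of all 4 complexes were called lower in liver of fasted mice 1-16, all but mt-Atp6 of complex V, and the listed total of every IF mouse lay below that of every AL mouse. The total was 135793, 194093 and 236456 CPM (lowest, median, highest) under AL and 72502, 92164 and 124391 CPM under IF, a ratio of means of 0.523, without overlap. As a part of the library, IF had 7.25, 9.22 and 12.4%. The genes are taken by complex in what follows.

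Complex I subunits form the arm of the complex that lies in the membrane. There mt-Nd1 was 20032, 28529.6 and 33221 CPM under AL and 12184, 14516 and 20510.4 CPM under IF, overlapping at the edge, with 8 of 8 IF mice below the AL median. For mt-Nd2 the values were 18322, 28019.5 and 32556 CPM against 8762, 12165 and 18446 CPM, overlapping slightly. The ranges separated fully for mt-Nd4 (22763, 31005 and 35378 CPM against 11038, 14909.5 and 20049 CPM) and for mt-Nd5 (3119, 5007 and 7055 CPM against 1677, 2240.0 and 2938 CPM). Low values thus belonged mostly to the IF group and high values to the AL group. The log2 fold changes from the edgeR quasi-likelihood fit were -0.94 for mt-Nd1 (SE 0.15, adjusted p 1.41e-05), -1.17 for mt-Nd2 (SE 0.17, adjusted p 6.54e-06), -1.08 for mt-Nd4 (SE 0.14, adjusted p 1.00e-06) and -1.23 for mt-Nd5 (SE 0.17, adjusted p 3.04e-06).

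Complex III has a single mitochondrial subunit, cytochrome b. Its gene mt-Cytb in liver of mice 1-16 had 30836, 42645 and 48999.7 CPM under AL and 17581, 19899 and 26446 CPM under IF, so the lowest AL mouse stood above the highest IF mouse. The log2 fold change was -1.05 (SE 0.14, edgeR adjusted p 1.67e-06).

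Complex IV subunits differed in how firmly they could be measured. The catalytic subunit gene mt-Co1 had 38057, 53860.3 and 76141 CPM under AL and 20021, 28291 and 37664 CPM under IF, without overlap, and mt-Co2 had 754, 929 and 1441 CPM against 322, 382 and 702 CPM, also without overlap. For mt-Co3 the ranges overlapped (326, 464 and 1788 CPM against 221, 289 and 406 CPM), and AL mouse 4 stood far above the other AL mice. The log2 fold changes were -0.99 for mt-Co1 (SE 0.16, edgeR adjusted p 2.03e-05), -1.28 for mt-Co2 (SE 0.21, adjusted p 2.97e-05) and -1.12 for mt-Co3 (SE 0.33, adjusted p 0.0116). Without AL mouse 4 the change of mt-Co3 was -0.66, still called (adjusted p 0.00214). Reads of mt-Co2 and mt-Co3, and of part of mt-Co1, are shared with the nuclear copy.

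Complex V gave the least certain values. Under AL in liver of mice 1-16, mt-Atp6 had 458, 787 and 1984 CPM, and under IF 139, 222 and 1664 CPM, with 7 of 8 IF mice below the lowest AL mouse and IF mouse 16 at the top. Its log2 fold change of -1.46 (SE 0.57, edgeR adjusted p 0.0510) missed the threshold. Without IF mouse 16 it was -2.31 with an adjusted p of 0.000222, and mt-Atp6 was also called without AL mouse 1, 3 or 7. Over 9 alternatives the adjusted p ran from 0.00592 to 0.1195, and 6 of them called the gene. For mt-Atp8, with few counts, the values were 1.11, 2.54 and 5.47 CPM under AL and 0.571, 1.15 and 2.96 CPM under IF, overlapping, with a log2 fold change of -1.22 (SE 0.37, adjusted p 0.0103).

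The diets in liver of mice 25-40 could not be separated for any member. The listed total was 77264, 129120 and 223813 CPM under AL and 73734, 117328 and 174946 CPM under IF (ratio of means 0.853), with wide overlap and a broader spread than in mice 1-16. Complex I gene mt-Nd1 had 12573, 18289 and 34680.0 CPM under AL and 11691, 18878 and 25699 CPM under IF, and mt-Cytb had 15742, 27096 and 44077 CPM against 15163, 24066 and 35749.6 CPM. For mt-Co1 the values were 25723, 46663 and 80185 CPM against 23406, 39263 and 69668 CPM. Log2 fold changes of the 10 genes ran from -0.81 (mt-Atp8) to 0.12 (mt-Atp6), with edgeR adjusted p of at least 0.850.

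Whether the liver diet effect differed between the mouse sets was tested directly. A positive value means that the fall under IF seen in mice 1-16 was smaller or absent in mice 25-40. Over all 17658 genes tested, 23.7% were called for this difference, 12.8% higher and 10.9% lower. The edgeR test called 5 members: mt-Nd2 1.06 (SE 0.29, adjusted p 0.00639), mt-Nd4 0.94 (SE 0.27, adjusted p 0.00913), mt-Cytb 0.87 (SE 0.27, adjusted p 0.0154), mt-Nd5 0.99 (SE 0.32, adjusted p 0.0194) and mt-Nd1 0.82 (SE 0.27, adjusted p 0.0247). Of these genes mt-Nd4 alone reaches into the stretch that the nuclear copy repeats. Of the other members mt-Co1 was at 0.82 (adjusted p 0.0509) and mt-Atp6 at 1.62 (adjusted p 0.142), and mt-Co2, mt-Co3 and mt-Atp8 were further from the threshold. Scaling mattered here: with library totals in place of TMM 3 members were called, with mt-Nd1 and mt-Nd5 lost, whereas TMM without mitochondrial genes, DESeq2 and leaving out AL mouse 2 and IF mouse 10 each also called mt-Co1 (adjusted p from 0.0293 to 0.130 over 4 alternatives). With library totals the median of all genes moved from -0.04 to -0.21. Over all genes 2267 were called higher and 1919 lower with TMM, and 1483 higher and 2771 lower with library totals.

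In muscle of mice 1-16, where 23.1% of all genes were called, the calls among the members were mt-Nd2 and mt-Nd4 of complex I and mt-Atp8, all lower under IF. The listed total was 97513, 106302 and 116135 CPM under AL and 65110, 95442 and 129182 CPM under IF (ratio of means 0.904), with IF mice spread more widely. In complex I, mt-Nd2 had 13522, 14739.6 and 16339 CPM under AL and 7487, 11733 and 17053 CPM under IF, with 7 of 8 IF mice below the lowest AL mouse, and mt-Nd4 had 14141, 16369.5 and 17485 CPM against 8961, 13075 and 16103 CPM, with 8 of 8 below the AL median. The gene mt-Atp8 had 0.661, 1.59 and 1.88 CPM under AL and 0.168, 0.663 and 1.02 CPM under IF. All 3 genes overlapped between diets.

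The fit in muscle of mice 1-16 called these 3 of 10 members lower and no member higher, where 23.1% of all genes were called (11.6% lower). Log2 fold changes were -0.40 for mt-Nd4 (SE 0.09, edgeR adjusted p 0.00225), -1.35 for mt-Atp8 (SE 0.31, adjusted p 0.00322) and -0.39 for mt-Nd2 (SE 0.11, adjusted p 0.0123). Without a count filter mt-Nd2 was not called (adjusted p 0.0560). At an unadjusted p under 0.05 there were 6 members, and DESeq2 called 4. The gene mt-Co2 (232, 581 and 1171 CPM against 211, 333 and 504 CPM, overlapping) was at -0.86 (SE 0.30, adjusted p 0.0531), and it was called by DESeq2, with at least 10 counts per library, with pseudogene counts added, and without AL mouse 6 or 7 or IF mouse 12 or 13. Leaving out IF mouse 11 gave 6 called members, with mt-Nd1, mt-Nd5 and mt-Cytb added. For mt-Co1 (23839, 27204 and 33466 CPM against 19169, 27640.3 and 38118 CPM) the change was -0.04 (adjusted p 0.834), and 0.03 with library totals. Over all genes in this comparison 1727 were called higher and 1738 lower with TMM, against 2549 higher and 1073 lower with library totals.

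No member in muscle of mice 25-40 was called, and the difference from mice 1-16 was not called either. The listed total was 89877, 117525 and 160658 CPM under AL and 77247, 99612 and 122093 CPM under IF (ratio of means 0.855), overlapping. The lowest unadjusted p was that of mt-Nd5 (3775, 5841 and 7553 CPM against 2671, 4008 and 5359 CPM, overlapping), with a log2 fold change of -0.44 (SE 0.17, edgeR p 0.0190, adjusted p 0.391); it was the 1 member with an unadjusted p under 0.05, and DESeq2 called 0. For the difference between the sets edgeR called 0 members, with 3 at an unadjusted p under 0.05 and 1 by DESeq2. That gene was mt-Atp8, at 1.37 (SE 0.49, adjusted p 0.0543 with edgeR). Over all genes this difference was called higher for 1207 and lower for 1107 with TMM, and higher for 522 and lower for 2563 with library totals, where the median of all genes moved from -0.01 to -0.17.

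In cortex of mice 1-16 most of the RNAs did not separate by diet, and the lowest p belonged to mt-Co3 and mt-Atp8, both inside the copied stretch. The listed total was 44144, 54123 and 81597 CPM under AL and 41776, 55124 and 66945 CPM under IF (ratio of means 0.943). For mt-Co3 the values were 40.4, 61.3 and 81.2 CPM under AL and 60.6, 93.4 and 202 CPM under IF, and for mt-Atp8 0.310, 0.636 and 1.14 CPM against 0.517, 1.13 and 1.96 CPM, both overlapping. These genes had log2 fold changes of 0.91 (SE 0.26, edgeR adjusted p 0.0521) and 0.85 (SE 0.30, adjusted p 0.0874), and the other members lay between -0.20 and 0.11. The edgeR fit thus called 0 members, with 2 at an unadjusted p under 0.05 and 2 by DESeq2. With pseudogene counts added the change of mt-Co3 was 0.34, and its adjusted p ran from 0.0157 to 0.501 over 10 alternatives, of which 2 called it. At the mt-Co3 pseudogene Gm28437 the median was 96.3 CPM under AL and 68.4 CPM under IF, overlapping. Single libraries also mattered: mt-Co3 was called without IF mouse 10, and mt-Atp8 without AL mouse 6 or IF mouse 12.

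In cortex of mice 25-40 a single member stood out, and it is one whose reads are shared with the nuclear copy. The listed total was 47616, 60347 and 65979 CPM under AL and 51469, 55507 and 60163 CPM under IF (ratio of means 0.940), overlapping. The gene mt-Atp6 had 132, 300.0 and 757 CPM under AL and 36.7, 57.6 and 107 CPM under IF, without overlap, and a log2 fold change of -2.43 (SE 0.35, edgeR adjusted p 0.0434). Only 2 of 18403 genes were called in this comparison, so the call rests near the threshold. It was lost in 12 of 16 fits that left out 1 library, where the fold change ran from -2.60 to -2.12 and the adjusted p from 0.0177 to 0.159; the call held without AL mouse 26, 27, 29 or 32. Library totals, no filter and the replicate block lost it too, 5 of 8 alternatives kept it (adjusted p from 7.22e-09 to 0.204), and with pseudogene counts added the change was -1.84. At the pseudogene Gm10925 the counts were also lower under IF (53.7, 61.2 and 73.3 CPM against 66.7, 99.0 and 216 CPM under AL), and it held 22.7% of the joint counts at the AL median and 52.7% at the IF median.

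The other members wholly inside the copied stretch in cortex of mice 25-40 were also lower at the median under IF without being called by edgeR. The gene mt-Co3 had 63.2, 98.2 and 183 CPM under AL and 42.0, 51.5 and 92.2 CPM under IF, with 7 of 8 IF mice below the lowest AL mouse. Its log2 fold change was -1.02 (edgeR adjusted p 0.238). Without AL mouse 26 edgeR called mt-Co3, and DESeq2 called it with all libraries used (adjusted p 0.0329). For mt-Atp8 the values were 0.927, 1.16 and 1.88 CPM against 0.561, 0.736 and 1.12 CPM, with -0.71 (adjusted p 0.275), and for mt-Co2 123, 198 and 316 CPM against 80.3, 103 and 246 CPM, with -0.70 (adjusted p 0.359). All of these overlapped. Between the mouse sets the diet effect in cortex was called different for 2.03% of 19547 genes. Among the members it differed for mt-Co3 (-1.93, SE 0.37, adjusted p 0.00833), mt-Atp8 (-1.55, SE 0.36, adjusted p 0.0183) and mt-Atp6 (-2.53, SE 0.57, adjusted p 0.0184). It was not called for mt-Co2 (-0.50, SE 0.43, adjusted p 0.619), and the 6 members not wholly inside the copied stretch lay between -0.11 and 0.10. This difference was not refitted with pseudogene counts added.

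**Figure D3:**
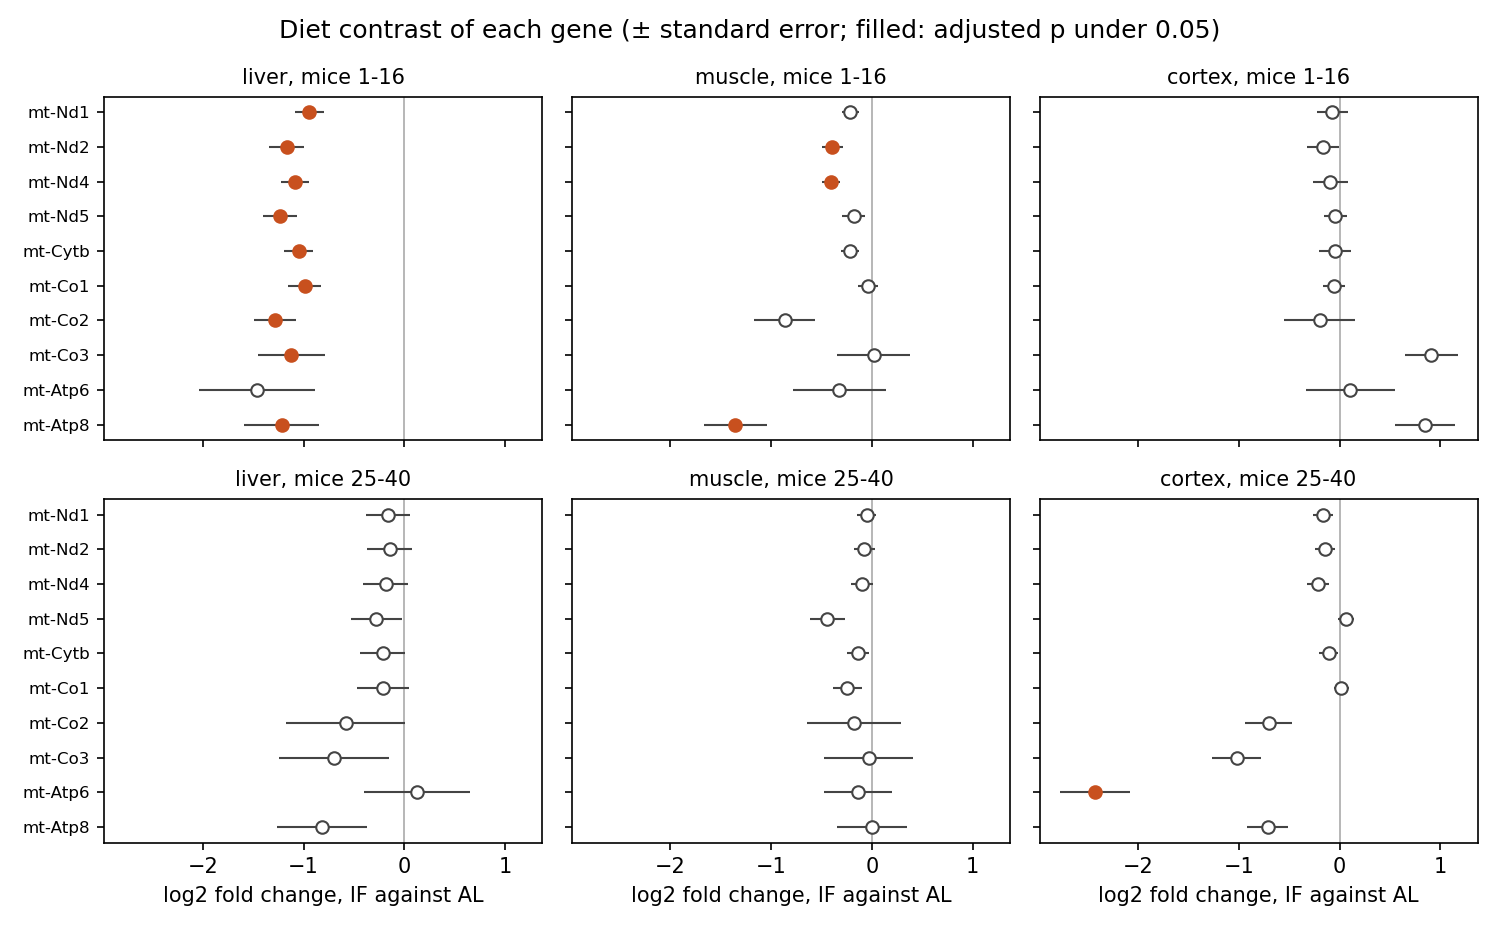
Log2 fold change of IF over AL for each member by tissue and mouse set, with bars of 1 SE on each side. In liver of mice 1-16 all 10 genes lie below 0, between -1.46 and -0.94, and in liver of mice 25-40 they lie between -0.81 and 0.12.

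The share of each gene in the listed total separates a change in balance from a change of the whole. Shares of a library add up to the whole, so a fall in some genes raises the share of others. The share tests of a comparison are therefore not independent. Shares were compared by a two-sided exact permutation of diet labels within each tissue and mouse set (8 against 8 mice, or 7 against 8 in cortex of mice 1-16), with Benjamini-Hochberg adjustment over 60 tests, and 9 were called, with 18 at an unadjusted p under 0.05. None of the 9 was in liver, where the lowest p was 0.0141 (mt-Nd5 in mice 1-16). For liver of mice 1-16 the fall was thus called gene by gene without a called shift in the balance among the genes.

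The balance in muscle of mice 1-16 shifted away from mt-Nd2, mt-Nd4 and mt-Atp8 and toward mt-Co1, with no called shift for the other members. The level of mt-Co1 itself was not called there (log2 fold change -0.04, edgeR adjusted p 0.834). The share of mt-Nd2 was 13.5, 13.97 and 14.2% under AL and 11.5, 12.1 and 13.2% under IF, without overlap (mean difference -1.65 points, exact permutation p 0.0001554, the smallest these permutations can give, adjusted p 0.00466). The mean share of mt-Nd4 went from 15.2 to 13.4% (exact permutation p 0.00357, adjusted p 0.0303), and that of mt-Co1 from 25.8 to 29.2% (exact permutation p 0.00171, adjusted p 0.0256), both overlapping. For mt-Atp8 the exact permutation p was 0.00404. In muscle of mice 25-40 the mean share of mt-Nd5 went from 4.82 to 3.95% (exact permutation p 0.00559, adjusted p 0.0373), also overlapping.

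In cortex the shares that shifted belonged to genes of the copied stretch. In mice 1-16 the mean share of mt-Co3 went from 0.104 to 0.198% (exact permutation p 0.00140, adjusted p 0.0256), and in mice 25-40 from 0.188 to 0.0998% (exact permutation p 0.00295, adjusted p 0.0295). The share of mt-Atp6 in mice 25-40 fell from a mean of 0.563 to 0.110%, without overlap (exact permutation p 0.0001554, the smallest possible, adjusted p 0.00466), and for mt-Atp8 the exact permutation p was 0.00249. With the pseudogene counts added to their members 9 shares were again called, now without mt-Co3 in mice 1-16 and with mt-Co2 in mice 25-40 (-0.359 points, exact permutation p 0.00373).

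Among other RNAs of the mitochondrial genome in liver of mice 1-16, the ribosomal RNAs were higher under IF, mt-Nd6 was lower, and the messengers mt-Nd3 (-0.21, edgeR adjusted p 0.244) and mt-Nd4l (-0.93, adjusted p 0.104) were not called. The ribosomal RNA gene mt-Rnr2 had 1965, 2414 and 2604 CPM under AL and 3438, 4831 and 7419.9 CPM under IF, without overlap, with a log2 fold change of 1.004 (edgeR adjusted p 2.61e-06). The other ribosomal RNA gene mt-Rnr1 was at 0.73 (adjusted p 0.000330), also without overlap. The messenger mt-Nd6, read from the opposite strand and overlapping mt-Nd5 by 14 bases, had 3087, 5460.2 and 6972 CPM under AL and 1003, 1421 and 2195 CPM under IF, at -1.94 (adjusted p 1.39e-08). In all, 9 of the 22 other mitochondrial genes tested were called there (7 higher, 2 lower), where 44.6% of all genes were called. Libraries were made from poly-A RNA, so levels of ribosomal and transfer RNA depend on how much of it carries a tail. The same holds for the mitochondrial messengers, the members among them, and tails were not measured.

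Nuclear genes that work with the members were set beside them, again in liver of mice 1-16 first. Of 21 nuclear core subunits of the same complexes, 11 were called higher and 2 lower under IF, with a median log2 fold change of 0.41 against 0.06 over all genes tested; the largest changes were in Cox5a (1.86), Atp5b (1.71) and Atp5d (1.31). Complex II, which has no mitochondrial subunit, had 2 of 4 higher (Sdhd 1.21, Sdha 1.01). Of 16 mitochondrial transcription genes 2 were called higher and 6 lower (Mterf2 -1.52, Tfb1m -1.22, Ssbp1 -0.79), of 20 for RNA processing 3 higher and 4 lower (Pnpt1 -0.93, Fastk -0.63, Grsf1 0.60), of 11 for translation 3 higher and 1 lower (Tufm 1.62, Mtif2 -1.09, Taco1 0.55), and of 8 regulators 4 higher and 2 lower (Ppargc1b 0.96, Gabpb1 -0.87, Ppargc1a 0.79). The medians of these last 4 lists were -0.27, 0.06, -0.09 and 0.25 in that order. Over all genes 44.6% were called in this comparison (23.5% higher, 21.1% lower).

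Nuclear core subunits called in muscle of mice 1-16 were lower under IF. There 6 of 21 passed, where 23.1% of all genes were called, with a list median of -0.11 against 0.01 over all genes (Cox5b -0.40, Ndufs8 -0.33, Cyc1 -0.30), and 2 complex II genes were lower (Sdhb -0.26, Sdhc -0.18). Called genes of the other lists were Mterf4 (0.25), Fastk (-0.32), Fastkd2 (0.22), Elac2 (0.20), Mrrf (0.20), Ppargc1a (0.70), Esrra (-0.51) and Yy1 (-0.16). In cortex of mice 1-16 the only call in these lists was Mrrf (-0.31), and in mice 25-40, where 0 to 2 genes of the whole table were called per tissue, no gene of these lists was among them.

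Tissue make-up can shift RNA levels, and marker genes were read for it. In liver of mice 1-16 the 5 hepatocyte markers, most abundant Alb, summed to 45510.5, 51355 and 72397 CPM under AL and 43219.9, 55609.9 and 66436 CPM under IF, with 2 called higher and 1 lower, and the 5 erythrocyte markers, most abundant Hba-a1, to 362, 569 and 956 CPM against 667, 2070.4 and 6879 CPM, with 3 of 5 called higher. In muscle of mice 1-16 the 5 adipocyte markers, most abundant Cfd, summed to 30.1, 93.2 and 331 CPM under AL and 112, 714 and 1859.97 CPM under IF, with 4 of 5 called higher, and the 5 markers of slow or oxidative fibres, most abundant Myh2 of the oxidative fast type, to 409, 1502 and 3160.5 CPM against 107, 916 and 1159 CPM. In cortex of mice 1-16 the 3 oligodendrocyte markers, most abundant Mbp, summed to 3523, 4296 and 5514 CPM against 4751, 6306 and 7892 CPM, with 2 of 3 called higher. The 2 nuclear retained RNAs, most abundant Neat1, summed to 1204, 1626 and 1793 CPM under AL and 608, 813 and 997 CPM under IF in liver of mice 1-16, both called lower, and 5 RNAs without a poly-A tail reached at most 6.17 CPM in any library. Their part in the result was not tested. In bulk tissue, fewer cells of a type and less RNA per cell cannot be told apart.

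Some genes varied from mouse to mouse much like the listed total. Among 7506 nuclear genes with a mean of at least 5 CPM in each tissue, the highest Pearson's r with the total over the 95 libraries, on log2 levels with each group's mean subtracted, belonged to the pseudogenes Gm10925 (0.767) and Gm28439 (0.660), both inside the nuclear copy, followed by Rmnd5b (0.644), 2700097O09Rik (0.642) and Mterf3 (0.623). These genes were picked for the highest r of all, so the r values are a description without a test.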

How the data were processed

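RNA was extracted with TRIzol and libraries were made from poly-A RNA. Reads were processed by the authors with CASAVA, aligned to mm39 with HISAT2 and counted per gene with featureCounts. The deposited table held raw counts per gene for 96 libraries; how reads with more than 1 best position were counted was not stated. All 37 mitochondrial genes had the same coordinates in the reference annotation. The library of cortex AL mouse 1 was left out by rule, leaving 95, so that a depth near 36132954 counts was the median. At that depth a gene at 1 CPM has few counts, and of the members this bears on mt-Atp8 alone.

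CPM and shares were computed from raw counts. Diet effects were tested within each tissue and mouse set with edgeR 4.0.16 in R 4.3.3 (filterByExpr with a minimum count of 10 and a minimum total of 15, TMM, robust quasi-likelihood), with Benjamini-Hochberg adjustment over all genes and a threshold of 0.05, together with the difference between mouse sets. Shares were tested by exact permutation in Python 3.11.15. Other packages were numpy 2.4.6, pandas 2.3.3, scipy 1.17.1, matplotlib 3.10.9 and limma 3.58.1. Nuclear copies were sought in GRCm39 with 150-base windows, seeded by 31-base matches. By plan edgeR was the main test and DESeq2 an alternative. Tested on simulated data, DESeq2 made a larger share of false calls than edgeR did. The simulation gave all genes the same spread, so it does not rank the tools on these data.

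The alternatives were library totals, RLE factors, TMM without mitochondrial genes, DESeq2 1.42.0, no filter, at least 10 counts, a replicate block, the left-out library put back, leaving out AL mouse 2 and IF mouse 10, and, for the diet effects within a mouse set, leaving out each library in turn; for shares, a denominator of 13 messenger RNAs and counts per kb. Adding pseudogene counts to their members was chosen after seeing the data. It was run for the diet effects within a mouse set and for shares, not for the difference between sets. Members and lists were chosen with earlier results of these data known. Named genes were all members, 5 other mitochondrial genes, at most 3 called genes per list with the largest log2 fold change and a mean of at least 1 CPM, and the 5 genes most like the listed total; marker genes are named for their abundance.

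AL and IF replicates with the same number are different mice. The correlation between their libraries, with each diet's mean subtracted, ran from -0.39 to 0.45, so no pairing was used.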

Additional observations from a re-analysis of the deposited data

Results flagged for a closer look

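Among 132 groups of values of the members and of their total, 16, all of single members, held 1 library far from the others of its group by Dixon's criterion, and chance alone gives about 1 in 20. In complex I these were mt-Nd2 in cortex of AL mouse 26 (4757 CPM) and mt-Nd4 in muscle of AL mouse 31 (18643 CPM) and IF mouse 40 (8417 CPM). In complex IV they were mt-Co2 in liver of AL mouse 32 (2803 CPM) and IF mouse 36 (1647 CPM) and in cortex of AL mouse 29 (316 CPM) and IF mouse 34 (246 CPM), and mt-Co3 in liver of AL mouse 4 (1788 CPM) and AL mouse 26 (2067 CPM) and in cortex of IF mouse 40 (92.2 CPM). In complex V they were mt-Atp6 in liver of IF mouse 16 (1664 CPM) and in cortex of AL mouse 4 (313 CPM) and AL mouse 27 (757 CPM), and mt-Atp8 in liver of IF mouse 16 (2.96 CPM) and AL mouse 28 (7.09 CPM) and in muscle of AL mouse 31 (4.45 CPM). Most of these values belong to genes that share reads with the nuclear copy.

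The diet effect differed between the mouse sets by the edgeR test of the difference (log2, mice 25-40 minus mice 1-16). In liver, where 23.7% of all genes were called, it did so for mt-Nd1 (0.82), mt-Nd2 (1.06), mt-Nd4 (0.94), mt-Nd5 (0.99) and mt-Cytb (0.87). With library totals mt-Nd1 and mt-Nd5 were not called. In cortex, where 2.03% of all genes were called, it did so for mt-Co3 (-1.93), mt-Atp6 (-2.53) and mt-Atp8 (-1.55). These cortex genes lie wholly inside the copied stretch, and the difference was not refitted with pseudogene counts added.

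The library of cortex AL mouse 1, used only in the alternatives that put it back, had 213 CPM of Xist and 0 CPM over 4 Y chromosome genes, although it is labelled male. The libraries used from mice 1-16 had at most 0.612 CPM of Xist.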

How the results depend on the processing

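All 10 members in liver of mice 1-16 kept a negative log2 fold change under every alternative and without any single library, with 9 to 10 called and 6842 to 7218 genes called when 1 library was left out. The cause of each change given here was not tested.

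Counts of called genes moved most where few were called. With DESeq2 they were 6 in liver of mice 25-40, 91 in muscle of mice 25-40 (against 1), 2259 in cortex of mice 1-16 (against 1332), 73 in cortex of mice 25-40 (against 2) and 706 for the cortex difference between sets (against 397). Without a filter muscle of mice 25-40 had 5. Without AL mouse 2 and IF mouse 10, cortex of mice 1-16 had 499 and the cortex difference 187; with the left-out library put back they had 295 and 81. Library totals gave 0 in cortex of mice 25-40.

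Called members also moved. Library totals gave 3 for the liver difference and 0 in cortex of mice 25-40, where no filter also gave 0. DESeq2 gave 1 for the muscle difference, 2 in cortex of mice 1-16 and 2 in cortex of mice 25-40, and at least 10 counts per library gave 1 in cortex of mice 1-16. With pseudogene counts added, 0 shares were called in cortex of mice 1-16 (against 1).

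Leaving out 1 library gave 3 to 6 members called in muscle of mice 1-16 (6 without IF mouse 11) and 2933 to 3740.0 genes. Muscle of mice 25-40 had 1 to 3 genes called, 3 without AL mouse 27 and 2 without IF mouse 33. Cortex of mice 1-16 had 0 to 1 members, 1 without AL mouse 6, IF mouse 10 or IF mouse 12, and 638 to 2059 genes: 638 without AL mouse 2, 766 without AL mouse 3, 771 without AL mouse 5, 878 without IF mouse 11, 2059 without IF mouse 12, 866 without IF mouse 13 and 823 without IF mouse 14. Cortex of mice 25-40 had 0 to 2 members and 0 to 254 genes, with 2 members and 254 genes without AL mouse 26; mt-Atp6 stayed called without AL mouse 26, 27, 29 or 32 and was not called in the other 12 fits.

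With a replicate block, which pairs AL and IF mice of the same number although they are different animals, cortex of mice 1-16 had 382 genes called, and cortex of mice 25-40 had 0 members and 0 genes. Log2 fold changes reversed under the block for mt-Atp6 in liver of mice 25-40 (-0.047), mt-Co3 in muscle of mice 1-16 (-0.019), mt-Co2 (0.12), mt-Co3 (0.27), mt-Atp6 (0.015) and mt-Atp8 (0.062) in muscle of mice 25-40, and mt-Atp6 in cortex of mice 1-16 (-0.010). None of these was called.

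Other reversals were likewise of uncalled values. Over the fits without 1 library, the log2 fold change ran on both sides of 0 for these members: in liver of mice 25-40 mt-Co2 -1.11 to 0.095, mt-Atp6 -0.17 to 0.39; in muscle of mice 1-16 mt-Co1 -0.12 to 0.022, mt-Co3 -0.26 to 0.23; in muscle of mice 25-40 mt-Nd1 -0.0875 to 0.028, mt-Nd2 -0.12 to 0.017, mt-Co2 -0.33 to 0.15, mt-Co3 -0.19 to 0.41, mt-Atp8 -0.15 to 0.42; in cortex of mice 1-16 mt-Nd1 -0.15 to 0.035, mt-Nd4 -0.18 to 0.027, mt-Nd5 -0.087 to 0.029, mt-Cytb -0.13 to 0.061, mt-Co1 -0.10 to 0.017, mt-Co2 -0.37 to 0.058, mt-Atp6 -0.13 to 0.49; in cortex of mice 25-40 mt-Co1 -0.012 to 0.055. Library totals gave 0.033 for mt-Co1 in muscle of mice 1-16 and -0.064 for mt-Cytb in the muscle difference. For mt-Atp8 in muscle of mice 25-40 the value was 0.0070 with RLE, 0.0071 with TMM without mitochondrial genes, 0.0076 with DESeq2 and 0.00423 without a filter.

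Without AL mouse 2 and IF mouse 10, mt-Co3 was at -0.042 in muscle of mice 1-16 and 0.029 in the muscle difference, mt-Nd5 at 0.000220, mt-Cytb at 0.00319 and mt-Co2 at 0.070 in cortex of mice 1-16, and mt-Nd2 at -0.019 in the cortex difference. Pseudogene counts, an alternative chosen after seeing the data, gave -0.094 for mt-Atp6 in liver of mice 25-40 and 0.084 for mt-Co2 in cortex of mice 1-16. Share differences reversed, in points, for mt-Cytb in liver of mice 25-40 (-0.0566 of 13 messenger RNAs, -0.0671 per kb), mt-Atp6 there (-0.0121 with pseudogene counts), mt-Co2 in muscle of mice 25-40 (-0.00269 of 13 messenger RNAs, -0.0159 per kb), mt-Cytb there (-0.0439 per kb), mt-Co2 in cortex of mice 1-16 (0.0570 with pseudogene counts) and mt-Cytb in cortex of mice 25-40 (0.0850 per kb).

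Depth limits mt-Atp8, with as few as 6 counts in a library. Reads shared with the nuclear copy limit mt-Co2, mt-Co3, mt-Atp6 and mt-Atp8 whatever the depth, and mt-Nd4 and mt-Co1 over part of their length. The counting rule for such reads was not stated. Messenger RNA levels say nothing of protein levels or of mitochondrial number, which were not measured in these libraries.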
